A study of Mus musculus with 8 samples.

Results

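The genes described are 10 that carry a peptide from the cytosol to the cell surface on an MHC class I molecule. They are the classical heavy chains H2-K1 and H2-D1, their light chain B2m, the peptide transporter subunits Tap1 and Tap2, the loading factor Tapbp, the immunoproteasome subunits Psmb8, Psmb9 and Psmb10, and the class I transactivator Nlrc5. They were listed by name for their roles, with earlier results of these data known, and all 10 were found among the 49315 features of the deposited table. RNA was sequenced from total splenic B cells of mice aged 4 months, in 4 control and 4 UMPS_BKO libraries. Both groups lacked FcγRIIB (FcγRIIB-/-), an inhibitory Fc receptor, in a model of spontaneous lupus-like autoimmunity. The controls carried CD23Cre without the Umps deletion (FcγRIIB-/-/CD23Cre+), and the UMPS_BKO mice are labelled as having a deletion of Umps in B cells (FcγRIIB-/-/UMPSBKO), a label that does not name their Cre line. Umps encodes the enzyme that makes uridine monophosphate at the end of de novo pyrimidine synthesis. CD23 is a surface receptor of mature B cells, so a Cre driven from its promoter acts late in B cell development. The sources used here do not give the deleted exons, the mouse strain or its H2 haplotype. The labels number the libraries as replicates without tying each to its own mouse, so a p-value here covers the spread among libraries, which may be technical.

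MHC class I molecules show fragments of the cell's own proteins to CD8 T cells. The proteasome cuts the proteins, the TAP transporter moves the fragments into the endoplasmic reticulum, and tapasin (Tapbp) holds the empty heavy chain and its light chain near TAP until a peptide binds. In lymphoid cells, and in other cells exposed to interferon-γ, the catalytic subunits Psmb8, Psmb9 and Psmb10 take the places of Psmb5, Psmb6 and Psmb7, which changes the fragments that are made. Nearly every nucleated cell carries class I, so these genes do not mark B cells. NLRC5 drives promoters of class I genes as CIITA drives those of class II, and interferon-γ acts on class I promoters in part through IRF1.

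The promoters of 4 members are shown because class I transcription is known to run through short elements just before the start site. These genes varied together across the libraries, as did most other members, and a part of the promoters in this was not tested. RefSeq (GRCm38.p6) gave promoters for 8 of the 10 members, all but Tap2 and Nlrc5. Each line holds the 250 bases before a start site, 5′ to 3′ on the gene's strand, and capitals mark matches on either strand to an NF-κB site (GGGGA followed directly by TTCCC), an interferon-stimulated response element (GAAA repeated after any 2 bases), a CCAAT box or a cAMP response element core (TGACGTCA).
H2-K1: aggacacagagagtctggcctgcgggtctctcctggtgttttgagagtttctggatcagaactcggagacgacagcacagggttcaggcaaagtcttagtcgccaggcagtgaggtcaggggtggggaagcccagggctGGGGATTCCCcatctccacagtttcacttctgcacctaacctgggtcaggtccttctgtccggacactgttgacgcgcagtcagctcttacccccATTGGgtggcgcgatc
H2-D1: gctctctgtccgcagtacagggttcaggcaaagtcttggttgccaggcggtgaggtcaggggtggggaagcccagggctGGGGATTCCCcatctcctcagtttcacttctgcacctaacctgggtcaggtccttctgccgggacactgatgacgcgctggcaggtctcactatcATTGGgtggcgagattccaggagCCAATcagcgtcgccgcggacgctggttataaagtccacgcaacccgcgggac
B2m: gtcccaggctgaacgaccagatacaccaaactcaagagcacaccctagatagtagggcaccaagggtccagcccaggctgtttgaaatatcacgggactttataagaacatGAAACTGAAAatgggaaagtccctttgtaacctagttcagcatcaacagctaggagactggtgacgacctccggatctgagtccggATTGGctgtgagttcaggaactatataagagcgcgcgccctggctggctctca
Tap1: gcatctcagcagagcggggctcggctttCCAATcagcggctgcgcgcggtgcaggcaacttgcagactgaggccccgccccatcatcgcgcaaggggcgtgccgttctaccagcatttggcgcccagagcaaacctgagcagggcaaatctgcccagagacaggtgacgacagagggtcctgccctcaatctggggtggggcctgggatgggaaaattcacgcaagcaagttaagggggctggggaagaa
In order, these lie at chr17:34000348-34000597 on the minus strand, chr17:35262844-35263093 on the plus strand, chr2:122147437-122147686 on the plus strand and chr17:34187306-34187555 on the plus strand. The H2-K1 and H2-D1 promoters shown held the same NF-κB letters, at positions −111 to −102 and −171 to −162 before the start site. Their longest identical run was 47 bases and included those letters. H2-K1 had 2 start sites, of which the first is shown, and before the second the letters lay at −125 to −116. Only 28 of 32851 mouse promoters of this length (0.0852%), counted by start site, held that sequence. The 2 windows of H2-K1 are both in that count. Only this exact sequence was searched for, so the share is not that of NF-κB sites in general. The B2m promoter held the interferon-stimulated element at −139 to −130, which 2.98% of promoters held. A CCAAT box, present in 33.8% of promoters, was found before all 4 of these start sites. Of the members not shown, Tapbp and Psmb9 had one, and Psmb8 and Psmb10 did not. A GC box (GGGCGG, 32.7% of promoters, not put in capitals) lay before Tap1, Tapbp and Psmb9. A gamma-activated sequence (TTCNNNGAA, 7.02% of promoters) lay before Psmb8 only. The cAMP response element core (1.55% of promoters) was found before none of the 8 members. No match overlapped another. The Tap1 stretch lies inside the annotated span of Psmb9, which is transcribed from the opposite strand, so the promoters of these neighbours overlap. A match of letters is a description of these windows and does not show that a factor binds.

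In the GENCODE M21 annotation of GRCm38, 7 of the members lie in the MHC on chromosome 17. Psmb9 (34181987 to 34187764), Tap1 (34187553 to 34197225), Psmb8 (34197721 to 34201454) and Tap2 (34203527 to 34216321) follow one another there, with Tapbp and H2-K1 on one side and H2-D1 on the other. B2m lies on chromosome 2, and Psmb10 and Nlrc5 lie on chromosome 8. The sources used here do not say whether reads were counted by strand. The exons of Tap1 and Psmb9 share 212 bases on opposite strands, and those of Tapbp, Psmb8, Tap2 and Nlrc5 share bases with an antisense or neighbouring gene, so part of their signal is uncertain. Of all 50-base windows in the transcripts, 9.63% for H2-K1 and 12.8% for H2-D1 also occurred in another gene, mostly another class I heavy chain, while B2m and Psmb10 had no such window.

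The libraries differed in makeup as well as in genotype. In units of 1000000 reads, recovered from the TPM values, depth was 5.81 to 18.8 in the controls, beside 10.6 to 28.6 in UMPS_BKO. Umps itself stood at 16.1, 35.1, 18.6 and 8.98 TPM in control replicates 1 to 4 against 5.99, 1.05, 13.6 and 2.16 TPM in UMPS_BKO replicates 1 to 4, so the groups overlapped (adjusted p = 0.283, limma) and UMPS_BKO replicate 3 was above control replicate 4. Ribosomal RNA-like features took 5.39 to 60.05% of TPM in the controls, beside 37.3 to 60.1% in UMPS_BKO. All 16 pan-B cell genes were above 0 in every library, but their mean log2(TPM + 1) ranged from 7.09 to 8.46 in the controls and from 4.54 to 7.77 in UMPS_BKO. The 16 did not move alike. Their fitted differences (UMPS_BKO minus control, log2 of TPM + 1) ran from −3.22 to 0.30. Of them, 14 were below 0, against 84.3% of tested genes, and 2 were above 0. The summed TPM of 15 erythroid genes was 239 to 632 in the controls, beside 4285 to 47735 in UMPS_BKO, without overlap. Hepatocyte genes summed to 42963 and 13124 TPM in control replicates 2 and 3 and to under 20 TPM in the other 6 libraries. Skeletal muscle genes summed to 127770 TPM in UMPS_BKO replicate 4 and to 0.27 to 2822 TPM in the rest. T cell genes summed to 165 to 460 TPM in the controls, beside 22.9 to 246 TPM in UMPS_BKO. Of the 12 T cell genes, Cd2 had the most recovered reads in every control, at 1064 to 3319. In UMPS_BKO replicate 2, 8 of the 12 were listed at 0, Cd3e and Cd4 among them. The rest, Cd2, Cd3d, Trbc2 and Lck, had 535, 306, 149 and 124 recovered reads there. Macrophage and monocyte genes summed to 203 to 629 and 50.6 to 383 TPM. The part of these differences in the results below was not tested, and in bulk RNA fewer cells of a type and less RNA per cell cannot be told apart.

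The class I molecule itself was among the most abundant products in the controls. By control mean TPM, B2m ranked 27, H2-K1 65 and H2-D1 78 of the 10708 genes tested. H2-K1, a classical heavy chain that binds peptide, stood at 663, 2290.5, 2598 and 1572 TPM in control replicates 1 to 4 against 1431, 150.0, 454 and 85.6 TPM in UMPS_BKO replicates 1 to 4. Of the UMPS_BKO libraries, 3 were below every control, and UMPS_BKO replicate 1 was above control replicate 1, so the groups overlapped. The fitted difference of H2-K1 was −2.38 ± 0.84 (log2 of TPM + 1, SE) with an adjusted p of 0.283 (limma). H2-D1, the other classical heavy chain measured, had levels of 411, 1696, 2100.1 and 1393 TPM in the controls, beside 1068, 139.8, 307 and 102 TPM in UMPS_BKO. Its libraries stood in the same order as for H2-K1, with a difference of −2.19 ± 0.79 and the same adjusted p.

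B2m encodes β2-microglobulin, the light chain without which the heavy chains do not reach the surface. Its level was 1263, 6165, 6714 and 3924 TPM in the controls, beside 3257, 410.3, 995.4 and 210.4 TPM in UMPS_BKO. From the highest library, control replicate 3, to the lowest, UMPS_BKO replicate 4, the level differed 31.9-fold. The difference between groups was −2.38 ± 0.86 (adjusted p = 0.283, limma), and the groups overlapped. At least 2861 recovered reads lay behind each value of B2m.

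**Figure D1:**
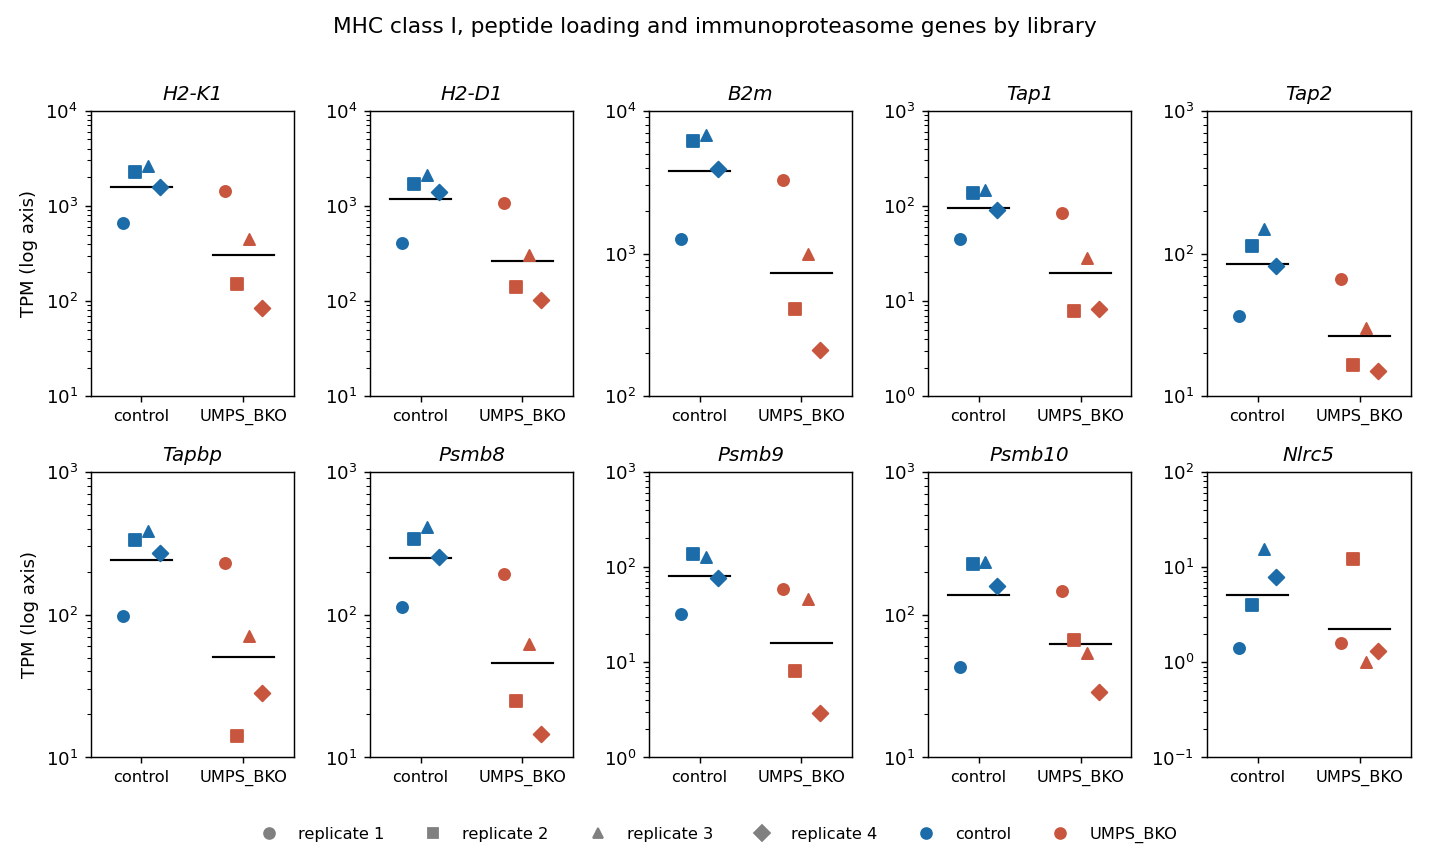
TPM of each of the 10 genes (log axis) in the 4 control and 4 UMPS_BKO libraries, with 1 point per library, a symbol per replicate number and a line at the geometric mean of each group. UMPS_BKO replicate 1 lies within the range of the controls for all 10 genes, control replicate 1 is the lowest control for all 10, and Nlrc5 has a different order of libraries.

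For Tap2 the libraries stood in the same order as for H2-K1, with UMPS_BKO replicate 4 the lowest. For Tap1 and Tapbp that order changed only in that UMPS_BKO replicate 2 was the lowest and replicate 4 the next. Tap1, an ATP-driven subunit of the peptide transporter, had 44.9, 137, 148 and 89.6 TPM in the controls, beside 84.6, 7.85, 28.2 and 8.18 TPM in UMPS_BKO. Its difference was −2.18 ± 0.77 (adjusted p = 0.283, limma). Tap2, its partner subunit, had 36.3, 113, 148 and 82.1 TPM in the controls, beside 66.7, 16.5, 30.01 and 15.0 TPM in UMPS_BKO. The Tap2 difference was −1.62 ± 0.66, with the same adjusted p. Tapbp had 97.6, 332, 387 and 269.6 TPM in the controls, beside 228, 14.0, 71.0 and 28.3 TPM in UMPS_BKO, a difference of −2.22 ± 0.81 (adjusted p = 0.283, limma). For each of the 3, UMPS_BKO replicates 2, 3 and 4 lay below every control and UMPS_BKO replicate 1 lay between control replicates 4 and 1.

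The immunoproteasome subunits differed in how many UMPS_BKO libraries lay below every control, with 3 for Psmb8, 2 for Psmb9 and 1 for Psmb10. Psmb8 (LMP7, the chymotrypsin-like subunit) had 113, 338, 409 and 253 TPM in the controls, beside 193, 25.0, 62.7 and 14.6 TPM in UMPS_BKO. It had the most negative difference of the 10, −2.41 ± 0.77 (adjusted p = 0.283, limma). Psmb9 (LMP2) had 31.8, 136, 127 and 77.0 TPM in the controls, beside 58.8, 8.09, 46.0 and 2.92 TPM in UMPS_BKO. Its difference was −2.20 ± 0.88 (adjusted p = 0.283, limma), and its 46.6-fold span between libraries was the widest of the 10. Psmb10 (MECL-1) had 42.8, 228, 234 and 158 TPM in the controls, beside 148, 66.0, 54.0 and 28.9 TPM in UMPS_BKO. Only UMPS_BKO replicate 4 lay below every control for Psmb10, and its difference was −1.13 ± 0.69 (adjusted p = 0.354, limma). Whether the difference of Psmb10 departs from those of Psmb8 and Psmb9 was not tested.

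Nlrc5, the transactivator of the class I genes, was the one member at low abundance, ranking 6960 of 10708 by control mean. It had 1.41, 4.00, 15.4 and 7.86 TPM in the controls, beside 1.57, 12.1, 1.011 and 1.31 TPM in UMPS_BKO. UMPS_BKO replicate 2, which was among the lowest libraries for H2-K1 and B2m, was the second highest for Nlrc5. That value rested on 1012 recovered reads and the lowest Nlrc5 count was 114 reads. The difference was −0.87 ± 0.83 (adjusted p = 0.514, limma), with overlapping groups.

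Across the 10 members, every fitted difference was negative and 0 passed the test, against 0.0934% of the 10708 tested genes called lower and 0.0374% called higher. The members' median difference was −2.19, within a range of −2.41 to −0.87, beside −0.90 for all tested genes, 84.3% of which were below 0. At an unadjusted p under 0.05, 8 of the 10 members were lower (all but Psmb10 and Nlrc5), against 16.4% of tested genes. This was not particular to the members, since 9 of 10 MHC class II genes and 10 of 16 pan-B cell genes were lower too. Among 14 constitutive proteasome core genes it was 1. The groups did not overlap for 0 of the members, against 4.81% of tested genes with every UMPS_BKO library below every control. Scaling by the median of ratios moved the median of all tested genes to −0.15 and that of the members to −1.28, with a range of −1.47 to −0.07. On that scale Psmb10 stood at −0.18 ± 0.46 and Nlrc5 at −0.07 ± 0.86, close to all genes, while H2-K1 and B2m both stood at −1.42.

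Calls for the members depended on UMPS_BKO replicate 1 and on how libraries were weighted. Without UMPS_BKO replicate 1, 6 members passed the test as lower (B2m, H2-K1, H2-D1, Tap1, Tapbp and Psmb8), against 2.8% of the genes tested there, and the members' median was −2.86. With array weights, which give less weight to more variable libraries, 8 members passed (all but Psmb9 and Nlrc5), against 17.8% of tested genes. With ribosomal RNA-like and mitochondrial features removed, the members' median was −1.48, beside −0.38 for all tested genes. Under quantile normalization these medians were −1.34 and −0.02, and 0 members passed in either setting. With a covariate for the pan-B cell mean, the members' median was −0.34, beside −0.36 for all tested genes, and Psmb10 stood at 0.29. Without UMPS_BKO replicates 2, 3 and 4, the libraries with the lowest pan-B cell level, the members' median was −0.19, beside −0.22 for all tested genes. That setting leaves UMPS_BKO replicate 1 alone in its group, so it only describes where that library lies.

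**Figure D2:**
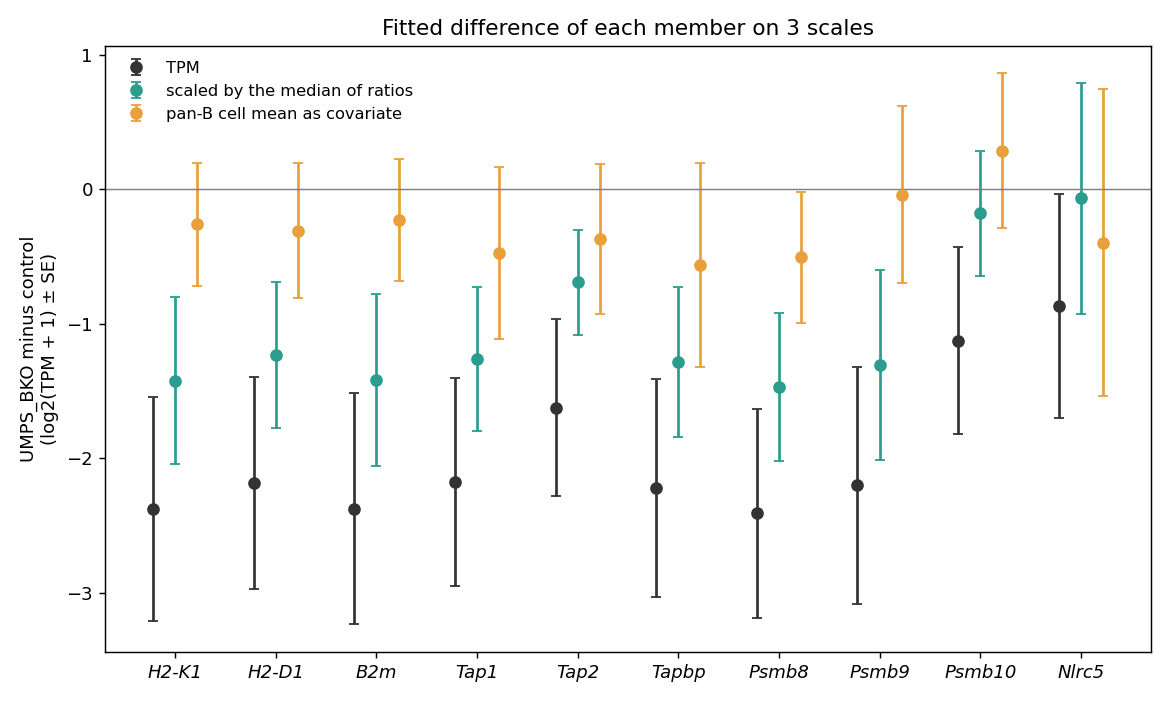
Fitted difference (UMPS_BKO minus control, log2 of TPM + 1, ± SE) of each gene on deposited TPM, on TPM scaled by median of ratios, and with a covariate for the pan-B cell mean. On TPM the values lie between −2.41 and −0.87, and with the covariate between −0.56 and 0.29.

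Of the 10 members, 9 followed one another from library to library. Over the 8 libraries, the correlation of each with the mean of the other members was 0.91 (Psmb10) to 1.00 (B2m), and it was 0.31 for Nlrc5. The 36 pairs that leave out Nlrc5 had correlations of 0.82 to 1.00, with a median of 0.97. After the median of ratios, Psmb10 was at 0.64 and Nlrc5 at −0.13. These correlations share depth, library scale and cell makeup, and are given as a description. With the pan-B cell mean, the 9 members had correlations of 0.88 to 0.97 and Nlrc5 had 0.42.

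The mean log2(TPM + 1) of the members was 6.43, 8.25, 8.57 and 7.87 in control replicates 1 to 4 against 7.46, 5.19, 6.14 and 4.50 in UMPS_BKO replicates 1 to 4. After subtraction of the pan-B cell mean of the same library it was −0.66, 0.25, 0.12 and −0.13 in the controls, beside −0.31, −0.97, −0.42 and −0.04 in UMPS_BKO. On that scale the groups overlapped widely, with the lowest and the third highest values both in UMPS_BKO. Per gene, the difference after this subtraction ran from −0.78 for Psmb8 to 0.50 for Psmb10 and 0.76 for Nlrc5, and it was 0.00 for Tap2. The MHC class II genes, which B cells use to present to CD4 T cells, had a median difference of −2.60 on TPM and −1.65 after the median of ratios. Of these 10 genes, 0 passed the test, against 0.0934% of tested genes called lower. At an unadjusted p under 0.05, 9 were lower, against 16.4% of tested genes.

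**Figure D3:**
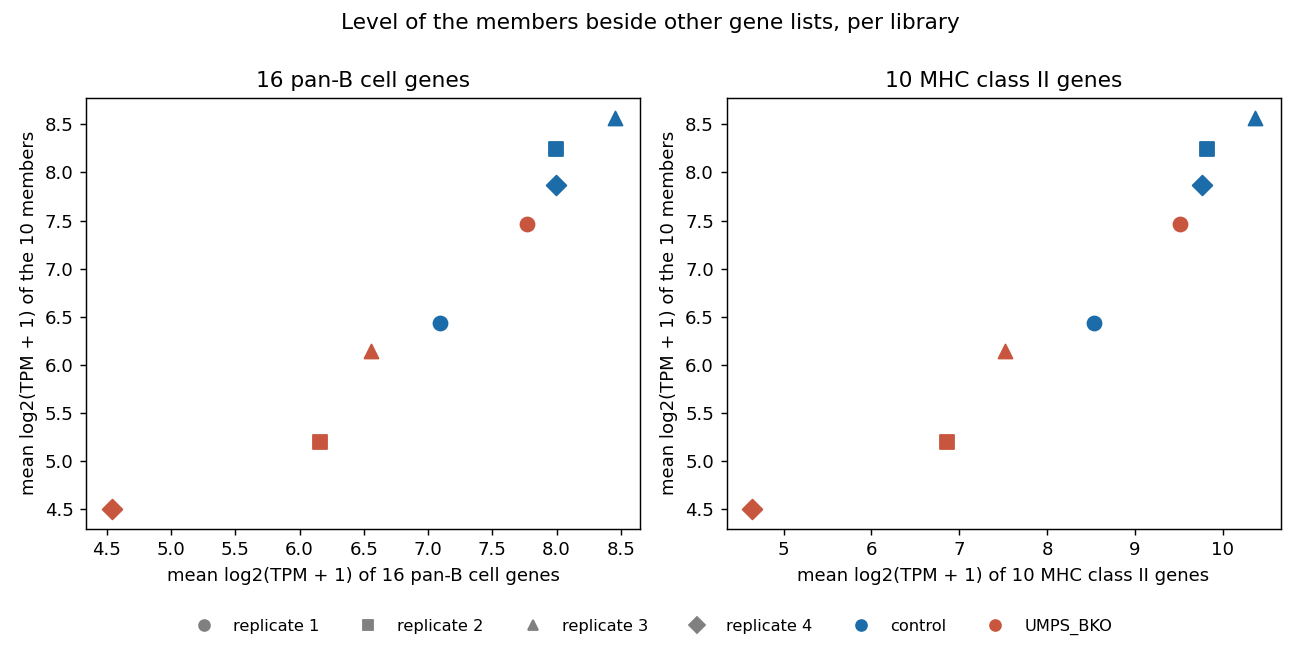
Mean log2(TPM + 1) of the 10 members in each library against that of 16 pan-B cell genes (left) and of 10 MHC class II genes (right). UMPS_BKO replicate 4 is lowest on every axis and control replicate 3 highest, and the members' mean broadly rises with that of each list. No line was fitted. The members' mean minus that of the list runs from −0.97 to 0.25 for pan-B cell genes and from −2.10 to −0.14 for class II.

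Among 4846 other genes with a mean TPM of at least 10, those whose pattern over the 8 libraries was most like the members' mean were Pou2af1, Cmtm6 and Set (each r = 0.998), Rack1 and Rpl11 (both 0.997), and Rhoa, Cd22 and Rps25 (each 0.996). Such likeness was common, since 22.8% of the 4846 genes had a correlation above 0.9. Pou2af1 encodes a B cell coactivator, Cd22 an inhibitory receptor of B cells, and Rpl11 and Rps25 ribosomal proteins.

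A ratio of 2 genes within a library moves little with that library's scale, except where a gene is not far above the added 1, as Nlrc5 in most libraries and Ciita in UMPS_BKO replicate 4. For 8 pairs of genes, ratios of TPM + 1 were tested by exact permutation, two-sided. The smallest p such a test can give over 70 assignments is 0.0286. None of the 8 passed the threshold after adjustment over them. H2-K1 over B2m was among the steadiest, at 0.526, 0.372, 0.387 and 0.401 in the controls, beside 0.439, 0.367, 0.457 and 0.410 in UMPS_BKO (difference −0.00 ± 0.13 on the log2 scale, exact permutation p = 1). Across the same libraries the TPM of H2-K1 itself spanned 30.3-fold. H2-D1 over B2m differed by 0.19 ± 0.17 (exact permutation p = 0.371, adjusted 0.8) and was highest, 0.487, in UMPS_BKO replicate 4. Tapbp over B2m was also highest there, at 0.139 against 0.0366 to 0.0780 elsewhere.

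The 2 subunits of the transporter were near parity in most libraries. Tap1 over Tap2 was 1.23, 1.21, 0.997 and 1.09 in the controls, beside 1.26, 0.507, 0.940 and 0.575 in UMPS_BKO. Of the UMPS_BKO libraries, 3 were below every control, with a difference of −0.56 ± 0.32 (exact permutation p = 0.171, adjusted 0.8). Without UMPS_BKO replicate 1 it was −0.80, with an exact permutation p of 0.0286 and an adjusted p of 0.229.

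Immunoproteasome subunits were also set against the subunits they replace. Psmb8 over Psmb5 was 0.831, 1.06, 1.22 and 1.07 in the controls, beside 1.46, 0.409, 1.15 and 0.0908 in UMPS_BKO (difference −1.06 ± 0.92, exact permutation p = 0.4, adjusted 0.8). Psmb9 over Psmb6 was 0.729 to 1.03 in the controls, beside 0.780, 0.568, 2.84 and 0.0323 in UMPS_BKO (−0.94 ± 1.37, exact permutation p = 0.629). Psmb10 over Psmb7 was 2.90 to 4.03 in the controls, beside 4.77, 15.0, 3.22 and 0.485 in UMPS_BKO (−0.08 ± 1.03, exact permutation p = 0.914). The lowest value of all 3 ratios was in UMPS_BKO replicate 4, where Psmb5, Psmb6 and Psmb7 stood at 171, 120.3 and 60.6 TPM beside the high skeletal muscle sum of that library. Without that library the last 2 differences were positive, at 0.32 and 0.83, and that of Psmb8 over Psmb5 was −0.24. The spread of these ratios among the UMPS_BKO libraries was several times that among the controls.

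Nlrc5 over Ciita compared the class I with the class II transactivator. It was 0.194, 0.0669, 0.0971 and 0.196 in the controls, beside 0.0620, 1.13, 0.164 and 1.18 in UMPS_BKO, so UMPS_BKO replicates 2 and 4 stood above the other 6 libraries. The difference was 1.44 ± 1.12 (exact permutation p = 0.343, adjusted 0.8). Ciita had 11.4 to 168 TPM in the controls, beside 40.5, 10.6, 11.2 and 0.963 TPM in UMPS_BKO.

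**Figure D4:**
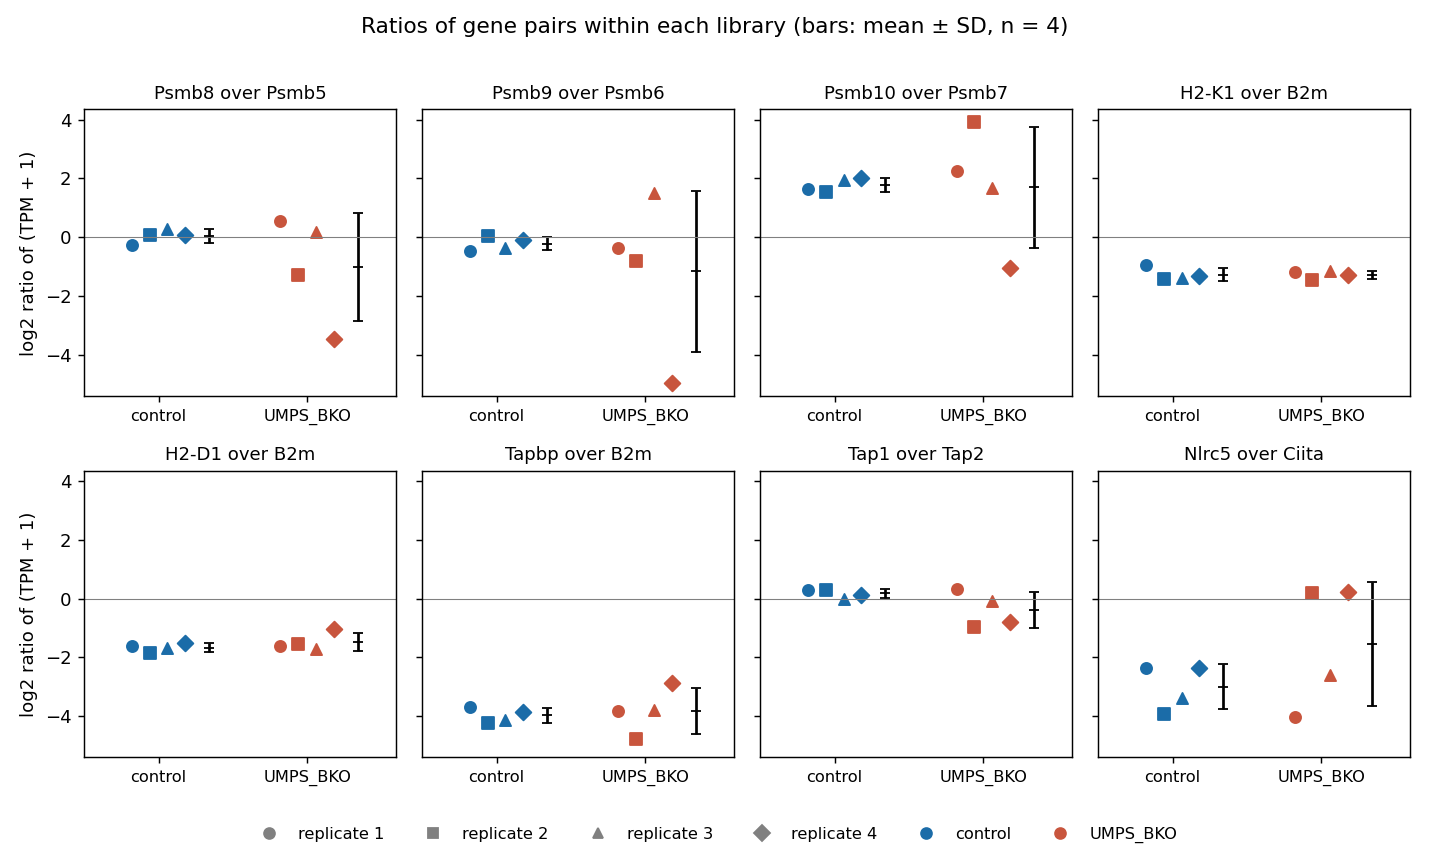
Log2 ratio of TPM + 1 for 8 pairs of genes within each library, with the mean ± SD of each group (n = 4). H2-K1 over B2m keeps within a narrow band, whereas the 3 ratios of immunoproteasome to constitutive subunits are low in UMPS_BKO replicate 4.

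Of 21 other class I heavy chains, 12 were expressed enough to be tested and 0 passed. At an unadjusted p under 0.05, 3 of the 12 were lower, against 16.4% of tested genes. All 12 had negative differences, against 84.3% of tested genes, with a median of −1.38 on TPM and −0.64 after the median of ratios. The gene with the smallest p was H2-T23, whose product Qa-1 presents to CD94/NKG2 receptors, at 141, 365, 385 and 270.2 TPM in the controls, beside 211, 28.1, 73.4 and 9.24 TPM in UMPS_BKO (−2.55 ± 0.83, adjusted p = 0.283, limma). H2-M3, which presents formylated peptides, differed by −2.01 ± 0.69, H2-Q7 by −2.77 ± 1.02, H2-Q6 by −1.79 ± 0.85 and H2-T24, the one of the 12 whose groups did not overlap (against 4.81% of tested genes), by −1.19 ± 0.59. H2-Q4, chosen after its values were seen, had 98.8 to 188 TPM in the controls, beside 61.5 to 165 TPM in UMPS_BKO, and its difference turned from −0.44 ± 0.54 on TPM to 0.51 ± 0.37 after the median of ratios. H2-Q10, a secreted heavy chain made in liver and also singled out after its values were seen, was listed at 303 and 87.9 TPM in control replicates 2 and 3, at 0.998 TPM in control replicate 4 and at 0 in the other 5 libraries. Those 2 libraries are the ones with the high hepatocyte sums. Because H2-Q10 shares more 50-base windows with H2-K1 than any other gene does, a contribution of liver transcripts to H2-K1 there was not tested.

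The other peptide supply and loading genes had a median difference near that of all tested genes. All 12 were tested and 0 passed. At an unadjusted p under 0.05, 3 were lower, against 16.4% of tested genes, and their median was −1.08 on TPM and −0.22 after the median of ratios. Psme1, a subunit of the interferon-inducible PA28 proteasome activator, had 84.9, 259, 302 and 223 TPM in the controls, beside 150.3, 51.4, 71.8 and 8.93 TPM in UMPS_BKO (−2.01 ± 0.79, adjusted p = 0.283, limma). Erap1, which trims peptides in the endoplasmic reticulum, differed by −1.68 ± 0.66, and the tapasin-related editor Tapbpl by −1.66 ± 0.66. These 2 of the 12 had every UMPS_BKO library below every control, against 4.81% of tested genes. Pdia3, the oxidoreductase of the loading complex, differed by −1.36 ± 0.68 and Lnpep, an endosomal aminopeptidase, by −1.75 ± 0.90. The constitutive catalytic subunits Psmb5, Psmb6 and Psmb7 differed by −1.36 ± 0.58, −1.26 ± 0.76 and −1.04 ± 0.84.

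Of 17 class I regulators and interferon-γ pathway genes, 0 passed. At an unadjusted p under 0.05, 5 were lower, against 16.4% of tested genes. Negative differences were found for 16 of the 17, against 84.3% of tested genes, and the median was −1.19 on TPM and −0.39 after the median of ratios. Irf1, a transcription factor that acts on class I promoters, had 34.5, 77.4, 98.5 and 90.3 TPM in the controls, beside 44.7, 12.02, 20.9 and 8.08 TPM in UMPS_BKO (−1.93 ± 0.65, adjusted p = 0.283, limma). Socs1, a feedback inhibitor of cytokine signalling, was listed at 11.8 to 54.7 TPM in the controls, beside 20.3, 0, 7.90 and 0 TPM in UMPS_BKO. Rela, an NF-κB subunit, differed by −1.87 ± 0.74 and the interferon-γ receptor chain Ifngr1 by −2.06 ± 0.89. Of 16 type I interferon-stimulated genes 14 were tested and 0 passed (5 at an unadjusted p under 0.05), with a median of −1.35 and 3 positive differences. Of those 5, 4 were lower in UMPS_BKO, against 16.4% of tested genes. The fifth, Rsad2, an antiviral enzyme, had 4.41 to 9.76 TPM in the controls, beside 15.2 to 189 TPM in UMPS_BKO (2.65 ± 0.75, adjusted p = 0.277, limma). Every UMPS_BKO library was thus above every control for Rsad2, against 0.504% of tested genes. It had its most recovered reads, 10860.5, in UMPS_BKO replicate 3, the library with the highest erythroid sum (47735 TPM). Whether Rsad2 followed the erythroid genes was not tested.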

How the data were processed

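Poly(A)-enriched RNA of splenic B cells was sequenced in 8 libraries, 4 per group. Per the labels' protocols, RNA was purified on columns and libraries were made with the NEBNext Ultra II kit. The submitters' processing notes name GRCm38, STAR 2.5.2b, Subread 1.5.2, featureCounts and bcl2fastq 2.20. The authors deposited TPM values, which sum to 1000000 in each library. The sources used here do not give how TPM was computed or any strand setting. Because each column has a fixed sum, abundant ribosomal RNA-like features lower the TPM of every other gene.

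Columns were matched to samples by library name. Reads were recovered from the steps of low TPM values (under 30 reads) times GENCODE M21 exon length, held by 49056 features. Between 90.5% and 92.9% of these values were whole within 0.05 reads. Since TPM is not a count, limma 3.58.1 (R 4.3.3, two-sided, eBayes with trend) was run on log2(TPM + 1) for group differences. They understate changes of low genes. The 10708 genes with TPM of at least 1 in at least 4 libraries were tested, with Benjamini-Hochberg adjustment over all of them and a threshold of 0.05. Ratios within libraries were compared by exact permutation, adjusted over 8 ratios. On simulated data for this comparison (10708 genes, 200 changed), 0% of simulated log2 changes of size 2 were recovered, 72.5% of size 4 and 95.5% of size 6. The simulated noise was drawn independently for each gene, whereas 84.3% of the tested genes had a difference below 0. These rates may therefore not hold for the data. Replicate numbers did not pair the libraries.

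The 10 members and all lists were chosen with earlier results of these data known. Genes beyond the members were named as the up to 5 of each list with the smallest p, the partners in ratios, and the 8 genes most like the members' mean; 1 gene that this rule names is not reported here. Alternatives were a pseudocount of 0.1 or 5, no filter, a mean TPM of at least 5, other scalings, removal of immunoglobulin or of ribosomal RNA-like and mitochondrial features, no trend, array weights, a replicate block, a pan-B cell covariate and libraries left out. Marker lists for NK cells, dendritic cells, neutrophils and platelets were summed too, at 0 to 93.3, 1.30 to 13.3, 0.911 to 589 and 22.5 to 133 TPM. Among the 14 constitutive proteasome core genes 0 passed the test, against 0.0934% of tested genes called lower. At an unadjusted p under 0.05, 1 of the 14 was lower, against 16.4% of tested genes, and their median difference was −1.08.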

Additional observations from a re-analysis of the deposited data

Results flagged for a closer look

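Of 74 groups of 4 libraries examined for a single library far from the rest, 1 stood out, where chance would give about 1 in 20, or 3.7. It was Nlrc5 in UMPS_BKO replicate 2, at 3.71 on the log2(TPM + 1) scale, whose gap to the nearest library was 0.868 of the group's range, above Dixon's critical value. The other 3 UMPS_BKO libraries had 1.011 to 1.57 TPM and this one 12.1 TPM. A gene on the opposite strand that shares 78 exon bases with Nlrc5, 9330175E14Rik, was listed at 0 in that library.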

How the results depend on the processing

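Of 220 alternative values for the 10 members, 204 kept their direction and their side of the threshold, 14 newly passed it (8 with array weights, 6 without UMPS_BKO replicate 1) and 2 changed sign. These were Psmb10 at 0.29 with the pan-B cell covariate and at 0.10 without UMPS_BKO replicates 2, 3 and 4. The cause was not tested. The replicate block (adjusted p of the members 0.452 to 0.653) called 5 genes higher and 23 lower in place of 4 and 10, and correlations of same-numbered libraries (−0.35 to −0.03) gave no pairing.

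Genes called higher, 4 with the settings reported, numbered 1 with a pseudocount of 0.1 or without ribosomal RNA-like and mitochondrial features, 84 with array weights, and 0 without a filter, with the covariate or without UMPS_BKO replicates 2, 3 and 4. Genes called lower, 10 as reported, numbered 5 with a pseudocount of 5, quantile normalization or without ribosomal RNA-like and mitochondrial features. They numbered 6 with a mean TPM of at least 5 or the median of ratios, 2 without immunoglobulin genes, 1906 with array weights, 1 without a filter or with the covariate, and 0 without control replicate 2 and UMPS_BKO replicate 4 or without UMPS_BKO replicates 2, 3 and 4. Leaving out 1 library gave 0 to 17 higher and 0 to 284 lower, both highest without UMPS_BKO replicate 1.

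Among ratios, leaving out 1 library gave log2 differences of −1.57 to −0.24 for Psmb8 over Psmb5, −1.83 to 0.32 for Psmb9 over Psmb6, −0.82 to 0.83 for Psmb10 over Psmb7, −0.057 to 0.11 for H2-K1 over B2m, 0.045 to 0.26 for H2-D1 over B2m, −0.17 to 0.47 for Tapbp over B2m, −0.80 to −0.36 for Tap1 over Tap2 and 0.85 to 2.26 for Nlrc5 over Ciita. H2-K1 over B2m was 0.014 with a pseudocount of 5. Without control replicate 2 and UMPS_BKO replicate 4, Psmb9 over Psmb6 was 0.41, Psmb10 over Psmb7 0.75, H2-D1 over B2m −0.021 and Tapbp over B2m −0.25. Without UMPS_BKO replicates 2, 3 and 4, Psmb8 over Psmb5 was 0.49, Psmb10 over Psmb7 0.47, H2-K1 over B2m 0.075, Tap1 over Tap2 0.16 and Nlrc5 over Ciita −1.02. That setting leaves UMPS_BKO replicate 1 alone in its group.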
